A study of Homo sapiens with 4 samples.

Results

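The integrated stress response genes described here are 10 genes chosen by name, among 8220 genes with a listed peak of N6-methyladenosine (m6A, a common internal modification of mRNA) in heated or control CaSki cells. They are ATF4, DDIT3, CEBPB, CEBPG, PPP1R15A, PPP1R15B, EIF2AK1, EIF2AK3, TRIB3 and ASNS. Their rows were taken by gene symbol from the authors' 2 peak lists, and 8 of the 10 had at least 1 row; DDIT3 and EIF2AK3 had none in either list. For background, 39.8% of the protein-coding genes in the RefSeq table had a listed peak. All samples were of CaSki, an established cell line from a cervical carcinoma that carries integrated papillomavirus DNA. Heated cells were kept at 42 °C for 60 min, and control cells were cultured at 37 °C. Each condition had 1 library of RNA immunoprecipitated with an m6A antibody kit and 1 input library, 4 in all.

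The integrated stress response is a pathway in which stress-activated kinases phosphorylate the translation initiation factor eIF2. Phosphorylated eIF2 blocks its exchange factor eIF2B, so that most mRNAs are translated less while a few with upstream open reading frames, ATF4 among them, are translated more. The transcription factor ATF4 then pairs with C/EBP family proteins and activates genes for amino acid supply, feedback and cell death. m6A is placed by a nuclear methyltransferase complex and is read by proteins that act on the stability and translation of mRNA. In the assay used here, MeRIP-seq, a peak is a region in which immunoprecipitated fragments pile up above background, so that single modified bases are not resolved.

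ATF4 and its partners are known to bind a composite site, the C/EBP-ATF response element, and the promoter stretches that hold its core are shown because this is the DNA sequence that these factors read. The core was searched as TGATGNAA on both strands in RefSeq windows (GRCh38.p14) from 250 bases before to 50 after each gene start. Of the 10 genes, 9 had at least 1 window, 16 windows in all. The core was held by 3 of these 9 genes, against 4.46% of the 27305 genes searched. That set is wider than the 20056 protein-coding genes of the RefSeq table, and its number of windows per gene is not given here. The stretches below run 5′ to 3′ on the gene's strand, with the core in capitals and 10 bases on either side.
PPP1R15B, chr1:204412027-204412054, minus strand: ccgccccggcTGATGCAAcctcacgctg
ASNS, chr7:97872459-97872486, minus strand: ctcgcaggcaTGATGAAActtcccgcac
CEBPG, chr19:33374061-33374088, plus strand: gcgcggcgtcTGATGCAAcctgccggca
The core began 227 bases before the start site used for PPP1R15B, 68 for ASNS and 42 for CEBPG. PPP1R15B and CEBPG held the same 8 letters. A heat shock element of 3 units, searched on both strands as GAA and TTC in alternation with NN between neighbours, was in none of the 9 genes. It was in 0.608% of all genes searched. The endoplasmic reticulum stress response element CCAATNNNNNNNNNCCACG, searched on both strands, was in none of the 9 genes and in 0.0916% of all genes searched. No overlap of motifs arose, since the core alone was found. A match is a run of letters and not a measured binding site, and the peaks described next lie in RNA and in another genome build (hg19).

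The lists held 15472 heat peaks and 14367 control peaks. The deposited fold enrichment, the ratio of immunoprecipitated signal to the background estimated by the caller, had a median of 31.6 in the heat list and 43.3 in the control list. The deposited significance score is minus 10 times log10 of the caller's p-value. It starts at 50 and has a plateau at 3100, which 707 heat peaks and 1398 control peaks held exactly. The caller's false discovery rate was listed as 100% for 53.2% of the heat peaks and 48.5% of the control peaks. Read depth is not in the lists and is unknown. Of 15 epithelial markers, 12 were in the heat list and 7 in the control list, KRT5, CDH1 and TP63 among those in either. Of 8 fibroblast markers, COL1A1 was in both lists, of 5 endothelial markers CDH5 was in the control list, and 0 of 9 immune markers had a peak.

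The genes with a peak were sorted by the list that held them. Of the 8 genes, 2 were in the heat list alone (EIF2AK1 and ASNS), 5 were in both (ATF4, CEBPG, PPP1R15A, PPP1R15B and TRIB3) and 1 was in the control list alone (CEBPB). Among all genes with a peak, 13.2% were in the heat list alone, 73.4% in both and 13.5% in the control list alone. With 8 genes, the heat-only share of 25.0% had an exact 95% binomial interval of 3.19 to 65.1%, and the shared one of 62.5% an interval of 24.5 to 91.5%. These intervals hold the values for all genes. They cover the counting of genes only, and with 1 immunoprecipitated library per condition no difference has a replicate check or a p-value. Peak calls depend on the amount of each RNA in the sample, and RNA levels in the input were not analysed here. For this reason a change in methylation and a change in RNA amount cannot be told apart.

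The 8 genes held 11 heat peaks and 10 control peaks, and 8 peaks of each list overlapped one in the other by at least 1 base. Over all genes, 66.7% of heat peaks and 71.7% of control peaks overlapped. Of the 8 overlapping heat peaks, 6 had exactly the start and end of their control counterpart, as 65.7% of all overlapping heat peaks and 43.8% of all heat peaks did. Among the 5 genes in both lists, 1 had more heat than control peaks, 3 had equally many and 1 had fewer. The shares over all genes in both lists were 25.0%, 54.3% and 20.6%. With a score above 228, the median of both lists pooled, 0 of the 5 had more heat peaks, 3 had equally many and 2, PPP1R15B and TRIB3, had fewer. The shares over all genes in both lists at that limit were 15.2%, 67.6% and 17.2%.

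**Figure D1:**
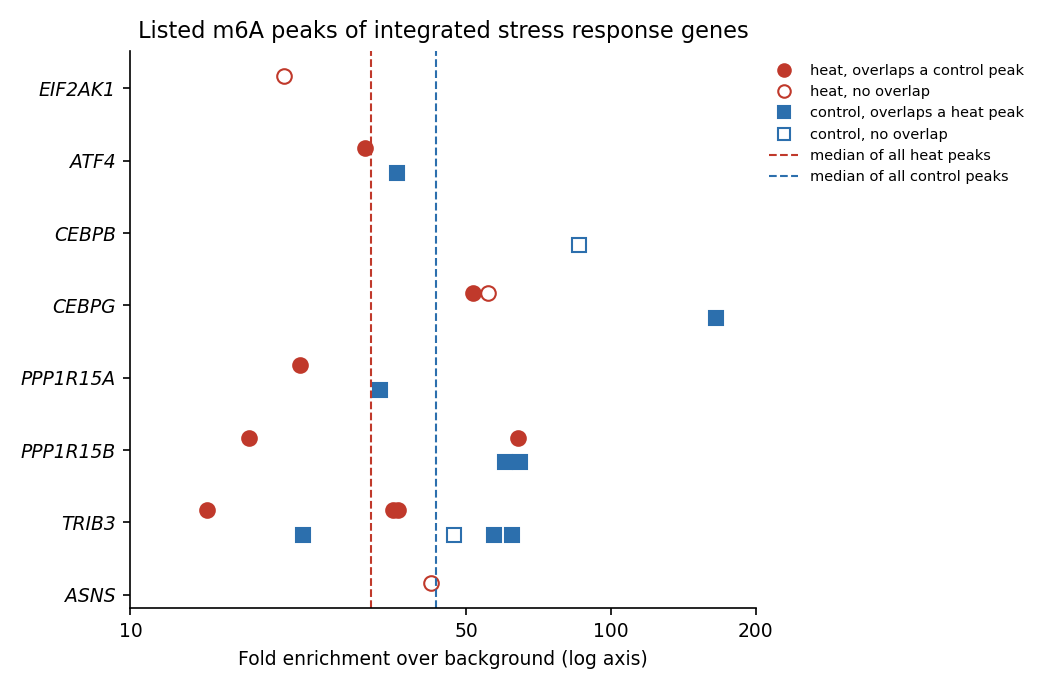
Fold enrichment (log axis) of each listed peak of the 8 genes, with heat peaks as circles and control peaks as squares, filled where the peak overlaps one in the other list. Dashed lines mark the median of all peaks, 31.6 in the heat list and 43.3 in the control list; the CEBPG control peak at 166 is the highest value and the TRIB3 heat peak at 14.5 the lowest.

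Of the 2 kinases among the 10 genes, 1 had a peak. EIF2AK1 encodes HRI, the kinase activated by heme shortage and by mitochondrial and proteotoxic stress, and EIF2AK3 encodes PERK, the sensor in the endoplasmic reticulum membrane. EIF2AK1 had 1 heat peak, at chromosome 7, positions 6061987 to 6064432, and no control peak. Its region of 2446 bases was the longest of any peak of these genes, while its fold of 20.9 was low, with 23.6% of heat peaks lower. Its score was 143, against a heat list median of 203, and its false discovery rate was listed as 100%. In the control list 10 peak numbers were unused between the flanking listed peaks, in PMS2 and USP42, so an unlisted control peak could lie there. AIMP2, a scaffold of the tRNA synthetase complex whose RefSeq span overlaps that of EIF2AK1, was also in the heat list alone, with peaks of 25.5-fold and 17.3-fold at lower coordinates than the EIF2AK1 peak. Strand is not in the lists, so reads of EIF2AK1 and AIMP2 cannot be told apart where they overlap. EIF2AK3 had no row. In the heat list 16 numbers were unused between the nearest genes with a peak on either side, KRCC1 and MRPS5, and in the control list 7 between KRCC1 and RPIA. The absence of EIF2AK3 therefore says that no peak was listed, not that its mRNA carried no m6A.

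ATF4, the central transcription factor, carried 1 peak, whose start and end were the same in heat and control. It lay at chromosome 22, positions 39917359 to 39918685, and spanned 1327 bases. The fold was 30.8 in the heat list and 35.9 in the control list, in each case below that list's median. The score was 1313 in the heat list and 703 in the control list. Within its own list, 87.4% of heat peaks and 69.6% of control peaks had a lower score than the ATF4 peak. Folds and scores are the authors' values for single peaks, and how the lists were scaled to each other is not given. They are set side by side here and below as descriptions of each list, not as a change between conditions.

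The C/EBP partners of ATF4 differed from each other. CEBPB encodes C/EBP beta, a factor of stress and inflammatory gene expression that ATF4 binds. It had no heat peak and 1 control peak of 2108 bases at chromosome 20, positions 48807120 to 48809227. The control peak had a fold of 85.8, with 77.7% of control peaks lower, and a score at the plateau of 3100. In the heat list 17 peak numbers were unused between the flanking listed peaks, in TMEM189 and FAM65C. An unlisted heat peak at CEBPB is therefore possible, and the median number unused in the heat list around control-only peaks was 6. No unused number was left for 3.29% of the control-only peaks with a heat peak on both sides.

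CEBPG encodes C/EBP gamma, a partner that forms heterodimers with ATF4 on amino acid response genes. Its main peak began at the same base of chromosome 19, 33870050, in both lists. It ended at 33871427 in the heat list and at 33871043 in the control list, so that the heat region was longer by 384 bases. The fold was 51.5 in the heat list and 166 in the control list, where 91.8% of peaks were lower. The score was 1302 in heat and at the plateau in control. A second CEBPG peak was listed in heat only, 227 bases long at positions 33864575 to 33864801, with 5248 bases between it and the main peak. Its fold was 55.5 and its score 129, and its false discovery rate was listed as 100%. In the control list the flanking peaks, in CEBPA and CEBPG, had consecutive numbers. No number was left there for an unlisted control peak, which held for 3.52% of the 5146 heat-only peaks with a control peak on both sides. The peak was nonetheless of low significance, with 35.9% of heat peaks lower in score.

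DDIT3 encodes CHOP, the transcription factor that drives the cell death arm of the response, and had no row. MARS, the methionyl-tRNA synthetase gene (now MARS1), overlaps DDIT3 in the RefSeq table and had 1 heat peak and no control peak. The MARS peak lay at chromosome 12, positions 57908737 to 57910430, with a fold of 31.1 and a score of 307. Without strand or an annotation of the files' build it was not determined whether this region reaches into DDIT3. Between the nearest genes on either side with a peak, R3HDM2 and DCTN2, 16 heat numbers were unused beside that of the MARS peak. In the control list 15 numbers were unused between R3HDM2 and PIP4K2C.

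The feedback regulators of the pathway had peaks in both conditions. PPP1R15A, also called GADD34, is the stress-induced subunit that directs protein phosphatase 1 to eIF2. It had 1 peak of 1725 bases, identical in start and end in heat and control, at chromosome 19, positions 49377575 to 49379299. The fold was 22.5 in heat and 33.0 in control, below the median of each list, while the score stood at the plateau of 3100 in both. It was the only heat peak of these genes at the plateau, beside 4 control peaks. Over all genes 707 of 15472 heat peaks and 1398 of 14367 control peaks were at the plateau.

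PPP1R15B, the constitutive counterpart also called CReP, had 2 peaks in each list on chromosome 1. The longer one, 204378620 to 204380919, had identical boundaries in heat and control and spanned 2300 bases. Its fold was 63.9 in heat and 60.1 in control, and its score was 2668 in heat and 3100 in control. The shorter one ended at 204375441 in both lists and began 1 base earlier in heat. It stood low in the heat list, with a fold of 17.7 and a score of 81.9, and above the median of the control list, with a fold of 64.6 and a score of 555. The longer peak stood above the median fold of both lists, with 82.8% of heat peaks and 65.0% of control peaks lower.

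TRIB3, a pseudokinase that ATF4 and CHOP induce and that restrains ATF4, had 3 heat peaks and 4 control peaks on chromosome 20. The peak at 376842 to 378203, the longest with 1362 bases, had a fold of 35.2 in heat and 22.8 in control, and a score of 953 in heat and 864 in control. It stood above the heat median, with 56.1% of heat peaks lower in fold, and low in the control list, with 15.3% lower. The short peaks at 368655 to 368945 and at 371931 to 372223 had folds of 14.5 and 36.1 in heat and of 62.3 and 57.0 in control. The first of them was near the limit of the heat list, with a score of 54.7 and only 3.94% of heat peaks lower. The remaining control peak, at 361273 to 361813, had a fold of 47.2 and no heat counterpart, and 1 number was unused there in the heat list. All 3 peaks in common had identical boundaries, so the TRIB3 regions differed between the lists by the absence of this peak alone.

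ASNS, the asparagine synthetase gene and a classic target of ATF4, was listed in heat only. Its single peak of 447 bases lay at chromosome 7, positions 97501031 to 97501477. The fold was 42.3, with 66.7% of heat peaks lower, but the score was 130 and the false discovery rate 100%. In the control list 12 numbers were unused between SDHAF3 and LMTK2. Both heat-only genes thus rested on peaks of low significance: with a score above 228 neither EIF2AK1 nor ASNS was left, and 0 of the 10 genes were heat only. Of all genes with a peak above that limit, 12.9% were heat only and 22.8% control only. CEBPB remained control only there.

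**Figure D2:**
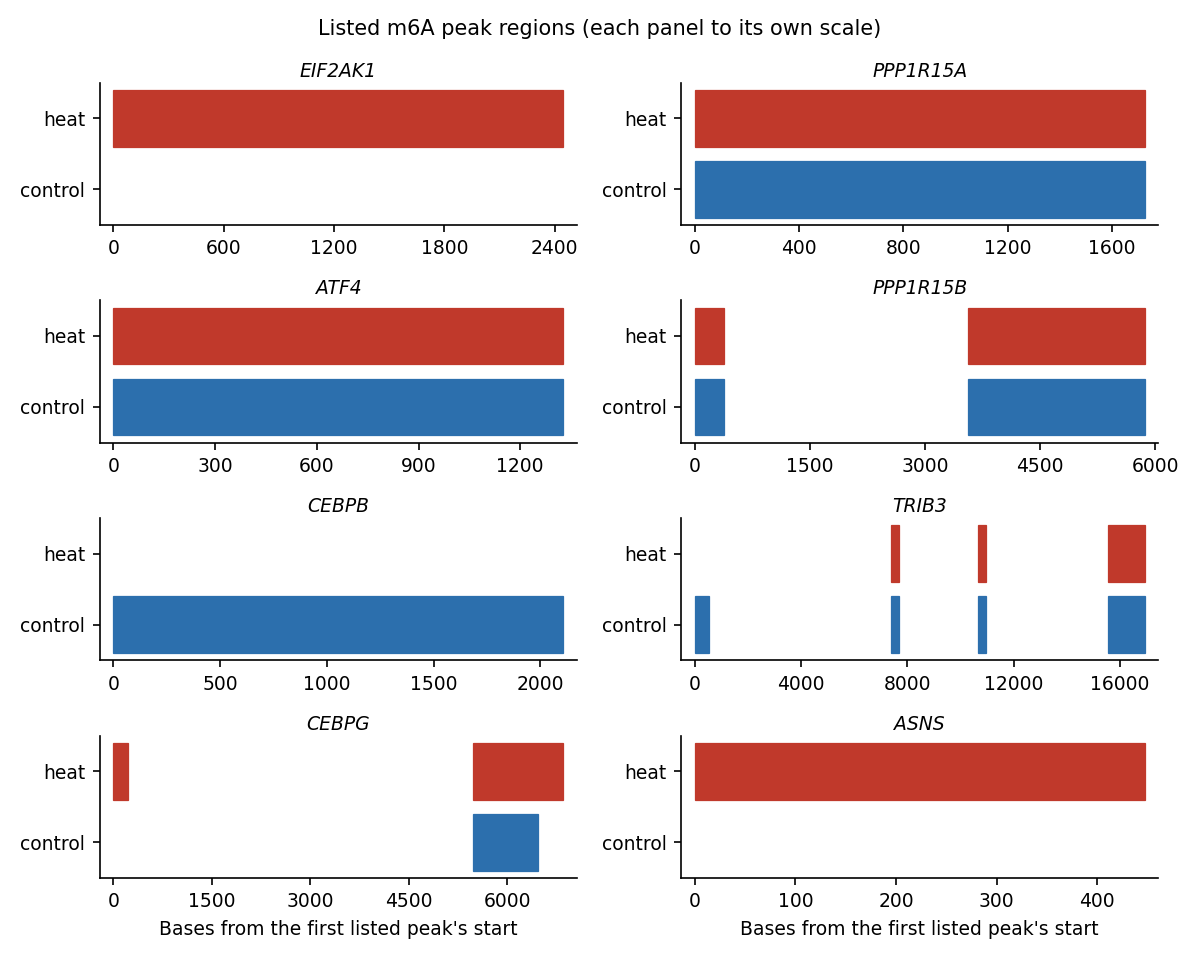
Listed regions of the 8 genes, in bases from the start of each gene's first listed peak along the chromosome, with the heat list above the control list and each panel to its own scale. ATF4 and PPP1R15A show identical regions, CEBPG an additional short region and an end extended by 384 bases in heat, and TRIB3 an additional first region in control.

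Across the genes, the heat peaks ran from a fold of 14.5 to 63.9 with a median of 35.2, and the control peaks from 22.8 to 166 with a median of 58.5. Above the median of all peaks in their own list lay 6 of 11 heat peaks and 7 of 10 control peaks. The regions were long compared with the lists: the median was 1327 bases in heat, against 417 for all heat peaks, and 1160 bases in control, against 537 for all control peaks. In each list 7 of the peaks exceeded the median length of all peaks. A false discovery rate of 100% was listed for 6 of the 11 heat peaks and 2 of the 10 control peaks. Over all genes it was listed for 53.2% of heat peaks and 48.5% of control peaks. Whether the regions are exonic, intronic or in untranslated regions was not determined, because no annotation of hg19 was used here.

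**Figure D3:**
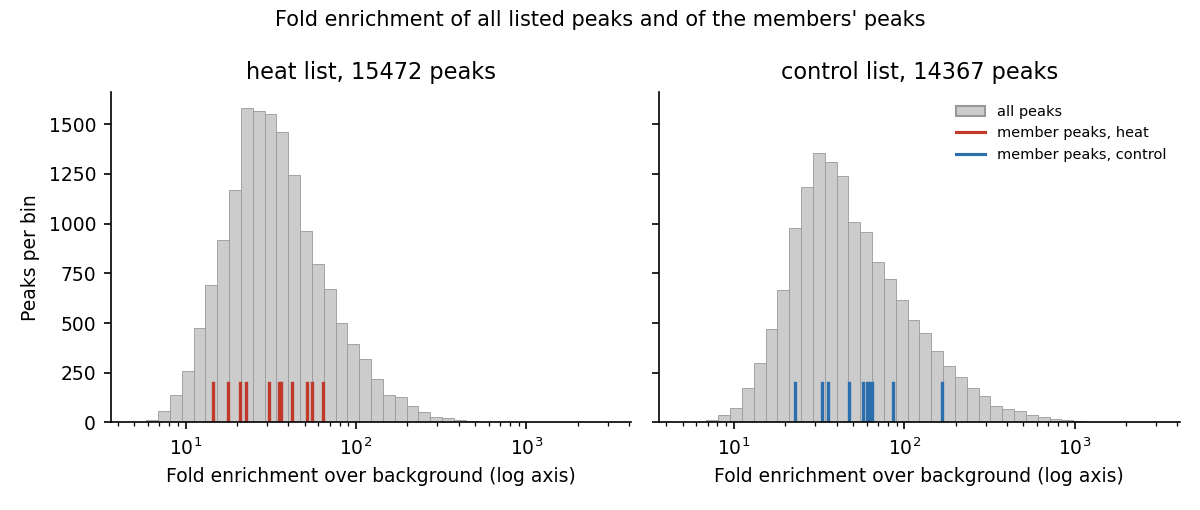
Number of peaks per bin of fold enrichment (log axis) in the heat list (left) and the control list (right), with short coloured lines at the peaks of the 8 genes. The lines lie within the bulk of both distributions, from 14.5 to 63.9 in heat and from 22.8 to 166 in control.

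A wider list of 52 genes of the same pathway, chosen from general knowledge, was read in the same way. Of these 52, 35 had a peak, beside 39.8% of the protein-coding genes. Of the 35, 5 were in the heat list alone (14.3%, exact interval 4.81 to 30.3%), 23 were in both (65.7%, 47.8 to 80.9%) and 7 were in the control list alone (20.0%, 8.44 to 36.9%). All of these intervals hold the shares over all genes. Of the 23 genes in both lists, 11 had more heat than control peaks (47.8%), 10 equally many (43.5%) and 2 fewer (8.7%), beside 25.0%, 54.3% and 20.6% of all genes in both lists. With a score above 228, 6 genes were in the heat list alone, 18 in both and 3 in the control list alone. The shares over all genes at that limit were 12.9%, 64.3% and 22.8%. Of the 18 genes in both lists, 4 had more heat peaks (22.2%, beside 15.2% of all genes in both lists). Without a limit, the groups of this list hold 4 to 10 genes with a peak. Their counts are read beside the shares over all genes without a limit, 13.2% heat only, 73.4% both and 13.5% control only. Their numbers with a peak are read beside the 39.8% of protein-coding genes that had one.

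Of 6 sensors and activators, 5 had a peak, 4 in both lists and 1 in the control list alone, beside 73.4% and 13.5% of all genes. EIF2AK4, which encodes GCN2, the kinase activated by uncharged tRNA, had 5 heat peaks and 2 control peaks. The 2 control peaks had exact counterparts in heat, and the 3 additional heat peaks had folds of 11.4, 120 and 30.0. Their scores were 56.2, 567 and 115, and the false discovery rate of the first and last was listed as 100%. GCN1 (formerly GCN1L1), the activator of GCN2, had 3 heat peaks and 1 control peak. The control peak overlapped a heat peak, at 48.4-fold in heat and 50.1-fold in control. The additional GCN1 heat peaks had scores of 66.0 and 62.0, near the lower limit, and a false discovery rate of 100%. OMA1, the mitochondrial protease that relays mitochondrial stress to HRI, had 1 control peak of 35.6-fold with a score of 57.8, near the lower limit. DELE1, the protein that OMA1 cleaves, had 1 peak in each list, and EIF2AK2, the kinase PKR, had no row.

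Of 9 genes listed with eIF2, the factor these kinases phosphorylate, and its exchange factor eIF2B, 5 had a peak: 1 in heat only, 2 in both lists and 2 in control only. The shared genes were EIF2S2, another eIF2 subunit, with 3 heat peaks and 4 control peaks, and EIF2A, a separate initiation factor, with 1 peak in each list. EIF2S1, the subunit of eIF2 that carries the phosphorylated serine, had 2 heat peaks of 14.4-fold and 15.7-fold and no control peak. Their scores were 79.1 and 64.7, and their false discovery rate was listed as 100%. The eIF2B subunits EIF2B1 and EIF2B2 each had 1 control peak and no heat peak, of 160-fold and 18.4-fold. The EIF2B2 peak had a score of 68.1 and a false discovery rate of 100%. The EIF2B1 peak, at chromosome 12, positions 124105575 to 124106467, had a score of 2500, and 8 heat numbers were unused at its site. The other eIF2B subunits, EIF2B3, EIF2B4 and EIF2B5, had no row.

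Among 15 transcription factors and stress effectors, 10 had a peak and 9 of these were in both lists, beside 39.8% of protein-coding genes with a peak and 73.4% of listed genes in both. ATF3, a repressor induced downstream of ATF4, was the exception and had 3 heat peaks, of 37.6-fold, 11.2-fold and 30.8-fold, and no control peak. The longest, at chromosome 1, positions 212792388 to 212794106, had a score of 347, and 1 control number was unused over the ATF3 locus. One unlisted control peak could therefore stand there, but not one for each of the 3 heat peaks.

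Genes of amino acid supply were found in heat only, in both lists and in control only. Of the 9 enzymes, 5 had a peak: 1 in heat only, 3 in both lists and 1 in control only. The shares over all genes were 13.2%, 73.4% and 13.5%. GPT2, an alanine aminotransferase, had 2 heat peaks, the stronger of 111-fold with a score of 577, and no control peak. PSAT1, of serine synthesis, had 1 control peak of 34.0-fold and no heat peak. CBS, of transsulfuration, had 3 heat peaks and 1 control peak, and the overlapping peak had a fold of 106 in heat and 21.8 in control. The additional CBS heat peaks had scores of 103 and 56.6 and a false discovery rate of 100%. The 6 transporters all had a peak, 4 of them in both lists. The other 2, the cystine transporter SLC7A11 and the neutral amino acid transporter SLC38A2, had 1 control peak each, of 48.3-fold and 16.5-fold, and no heat peak. Their scores were 124 and 64.0, below the control list median of 267, and their false discovery rate was listed as 100%.

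Of 7 genes of tRNA charging and export, 4 had a peak, with 13 heat peaks and 5 control peaks in all, beside 15472 and 14367 over all genes. GARS, EPRS and XPOT had no row, and WARS and AARS held 11 of the 13 heat peaks. WARS, for tryptophan, had 5 heat peaks and no control peak, with folds from 11.6 to 50.4 and scores from 69.3 to 146. SARS, for serine, had 2 heat peaks and no control peak, the stronger by score of 21.3-fold with a score of 725. NARS, for asparagine, had 1 control peak of 57.9-fold with a score of 99.6 and no heat peak. AARS, for alanine, had 6 heat peaks and 4 control peaks, and each control peak overlapped a heat peak. The additional AARS heat peaks had scores of 99.2 and 159 and a false discovery rate of 100%. The highest AARS peak by score had a fold of 70.2 in heat and 27.0 in control. The other shared AARS peaks had lower folds in heat, at 12.6, 12.3 and 16.9, beside 13.3, 38.6 and 27.2 in control. The WARS and NARS peaks thus had scores below the medians of their lists, 203 in heat and 267 in control, as did the weaker SARS peak with a score of 128.

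**Figure D4:**
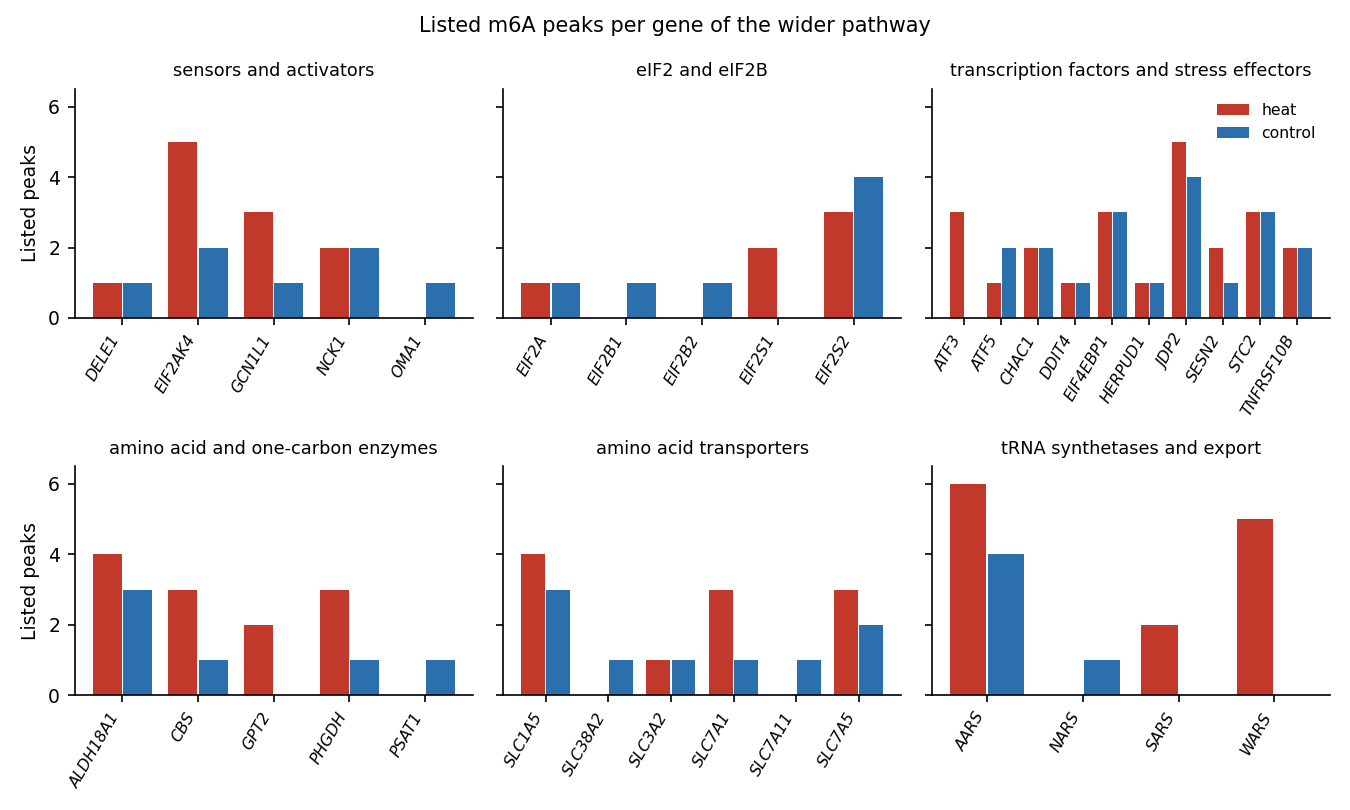
Number of listed peaks of each of the 35 genes of the wider list that had one, with heat bars left of control bars, grouped by role. ATF3, EIF2S1, GPT2, SARS and WARS have heat bars only, and OMA1, EIF2B1, EIF2B2, PSAT1, SLC7A11, SLC38A2 and NARS control bars only.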

How the data were processed

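The authors deposited 1 list of m6A peaks per condition, and these lists were the starting point. Trimming with cutadapt 1.9.3 and alignment with STAR to hg19 are named per the submitters' processing notes; the peak names begin with MACS per the file headers and contents, and its version, its settings and the strand of the peaks are not stated there. The deposited fold enrichment is a ratio, the deposited score is minus 10 times log10 of the caller's p-value, and false discovery rates were deposited as percent values, as read from headers and values. Peak numbers ran to 64647 in the heat list and to 58312 in the control list, so that 23.9% and 24.6% of the numbers were listed, in positional order.

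Genes were matched by symbol, older names through the gene identifier in the RefSeq table of GRCh38.p14, where all 10 genes were found. Starts were made 1-based. Peaks were called shared at an overlap of 1 base (bedtools 2.31.1). Unused numbers were counted between the listed peaks that flank a site in the other list. No test between conditions was made. Shares carry exact Clopper-Pearson intervals. On simulated regions all 5000 planted overlaps were found. The genes, the wider list and the rule for naming its members were chosen with earlier results of these data known. Named from it were all genes in 1 list alone and the 4 shared genes with the largest difference in peak number, ties taken by symbol, so that PHGDH and SLC7A1, with 3 heat peaks and 1 control peak like CBS, were not named; other genes named there were chosen after their values were seen. Alternatives were limits on fold, score and false discovery rate, equal numbers of top peaks, and other definitions of overlap.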

Additional observations from a re-analysis of the deposited data

How the results depend on the processing

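The count of 2 heat-only genes among the 10 was the least stable. It was 0 with a score above 228, with a false discovery rate under 100% and with 7183 top peaks from each list, 1 above a fold of 36.5, and 1 without genes whose span overlaps another coding gene, a setting chosen after seeing the data. Over all genes the heat-only share was 12.9% with the score limit, 13.9% with the limit on false discovery rate and 14.7% with 7183 top peaks. Above a fold of 36.5, 2 of the 10 genes were in both lists and 2 in control only (CEBPB and TRIB3), and ATF4 and PPP1R15A had no peak left in either. Over all genes 12.9% were heat only, 55.3% in both and 31.8% control only above that fold. The fold limit kept fewer heat peaks (6405) than control peaks (8488). Of the 11 heat peaks of the 10 genes, 5 were left above the score limit. Under the limit on false discovery rate 5 were left, and above the fold limit 4. Over all genes those limits kept 7216, 7242 and 6405 of 15472 heat peaks. Of the 10 control peaks 8, 8 and 7 were left, beside 7703, 7405 and 8488 of 14367 over all genes. The shared peaks of each list numbered 5 above the score limit and 2 above the fold limit. In the wider list the control-only genes numbered 3 with the limits on score and false discovery rate and with 7183 top peaks, and 4 above the fold limit. Over all genes the control-only share was 22.8% (score), 21.3% (false discovery rate), 20.9% (7183 top peaks) and 31.8% (fold). By peak number, a count added after seeing the data, only genes in both lists under a limit were compared. With the limits on score and false discovery rate, 0 of 5 such genes among the 10 had more heat peaks and 2 had fewer. Over all genes in both lists, 17.2% and 15.8% had fewer with those limits. With 7183 top peaks 0 of 5 had more. Above the fold limit 0 of 2 were equal, beside 59.5% of all genes in both lists. In the wider list 4 of 18 genes in both lists had more heat peaks with the limits on score and false discovery rate. Above the fold limit 4 of 17 did, and with 7183 top peaks 5 of 18. Over all genes in both lists the shares were 15.2% (score), 16.3% (false discovery rate), 13.6% (fold) and 16.8% (7183 top peaks). With 14367 top peaks the class counts of the 10 genes were 2, 5 and 1 as before, their heat peaks numbered 10, and TRIB3 had 2 fewer heat than control peaks. An overlap of 50% of both regions left 8 shared peaks in each list, and overlap under any symbol left the class counts at 2, 5 and 1. CEBPB was control only under every limit tried. No paired analysis was possible because each condition had 1 library of each kind. Depth is unknown, and how it bears on the listed peaks was not tested.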

Other observations

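Beyond the wider list, the files assign 26 listed genes to aminoacyl-tRNA biosynthesis in the KEGG database, a set looked at after the synthetase values were seen. Of these, 6 were in the heat list alone, 16 in both and 4 in the control list alone (23.1%, 61.5% and 15.4%, beside 13.2%, 73.4% and 13.5% of all genes). The heat-only genes included KARS and MARS, for lysine and methionine, beside SARS and WARS. KARS had 1 peak of 7.99-fold with a score of 116. The mitochondrial enzymes EARS2 and PARS2 had 1 control peak each, of 53.0-fold and 109-fold, and no heat peak. CARS2 and MTFMT, also mitochondrial, had 1 heat peak each, of 45.9-fold and 30.8-fold, and no control peak. LARS2 and MARS2, also mitochondrial, had 1 peak in each list. The fold was 18.9 in heat and 313 in control for LARS2, and 46.9 in heat and 233 in control for MARS2. Not all mitochondrial enzymes in both lists differed so much. The fold was 88.6 in heat and 78.2 in control for FARS2, and 78.1 in heat and 98.7 in control for HARS2.

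The files assign 99 listed genes to protein processing in the endoplasmic reticulum, ATF4, PPP1R15A and EIF2AK1 among them. Of the 99, 16 were in the heat list alone (16.2%), 73 in both (73.7%) and 10 in the control list alone (10.1%), beside 13.2%, 73.4% and 13.5% of all genes.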
